A study of Mus musculus
Rattus norvegicus and Mus musculus and Rattus norvegicus with 95 samples.

Results

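Interferon-linked and antiviral genes were followed through AdESCs, allodiploid embryonic stem cells of mouse and rat with 1 haploid mouse genome and 1 haploid rat genome in the same nucleus. The genes were picked by symbol. They are the homologues whose symbol begins with Ifi, Ifn, Isg, Oas or Gbp, with Irf and a digit or with Stat and a digit from 1 to 6, plus Bst2 and Usp18. This gave 46 of the 13926 homologues measured. The bulk set held 8 RNA libraries of stem cells in G0/G1, each from 1 cell line. F145 and F146 were mouse embryonic stem cells (ESCs), and DA25 and DA53 were rat ESCs. The 4 AdESC lines were MR1-1, MR2-1, RM1-1 and RM2-1. The single-cell set held 87 cells, grouped by line and cell type into 11 samples. AdESC samples had 6 (MR1-1), 8 (MR2-1), 4 (RM1-1) and 6 (RM2-1) cells. Differentiated samples were embryoid bodies (EBs) made from MR2-1 (12 cells) and RM1-1 (5 cells), and cells from chimaeric animals. The chimaeras were a mouse chimaera of MR1-1 (10 fibroblasts), a mouse chimaera of RM1-1 (8 neurons and 4 somatic testis cells) and a rat chimaera of RM2-1 (4 lung and 20 somatic testis cells). No treatment was named for any group, and each bulk library and each AdESC single-cell sample was a separate line. The 7 differentiated samples came from 4 lines, with 3 from RM1-1 and 2 from RM2-1.

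Type I interferons signal through the receptor chain Ifnar1, and interferon gamma signals through Ifngr1 and Ifngr2. The receptors activate Janus kinases that phosphorylate Stat proteins, and Stat2 and Irf9 are parts of the complex that switches on interferon-stimulated genes. The products of those genes act on viruses: Ifitm proteins at membrane fusion, Bst2 at budding, Oas enzymes and Ifit proteins on viral RNA, and Isg15 as a ubiquitin-like tag that Usp18 removes. Pluripotent stem cells are known for a weak response to interferon and for constant expression of a subset of these genes, the Ifitm family among them.

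Values are FPKM, fragment counts divided by transcript length and by library size, so the read depth behind them is unknown. The FPKM of a bulk library summed to between 312695 and 377664, and that of a cell to between 213045 and 411555. Genes at 1 FPKM or more numbered 7835 to 8770 in bulk, 4211 to 6246 in AdESC cells and 3444 to 6076 in differentiated cells. The 6 measured pluripotency markers averaged 6.16 to 6.55 on the log2(FPKM + 1) scale in single-cell AdESC samples and 0.741 to 1.84 in differentiated ones. A pair of samples did not bear out their labels in the markers measured. The RM2-1 lung sample listed 7 of 8 lung epithelial markers at 0 (mean log2 0.0168) while peritubular myoid markers averaged 7.43. Those myoid markers also averaged 4.00 in MR2-1 EBs and 4.48 in RM1-1 EBs. Fibroblast markers averaged 4.70 in the lung sample, so its cell type is unresolved. The RM1-1 testis sample carried neuron markers (mean log2 2.75) and glial markers (2.43), and its myoid markers averaged 1.66 against 8.34 in RM2-1 testis. Calls in differentiated and testis samples are given with and without them.

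The ligands were at the floor in every bulk library. Ifnb1 (interferon beta), Ifng (interferon gamma) and Ifnk (interferon kappa) did not exceed 0.168 FPKM in bulk, and Ifnb1 and Ifng were listed at 0 in all 87 cells. The highest Ifnk value in a cell was 3.95 FPKM, in an MR1-1 fibroblast. The receptor chains were low in bulk. Ifnar1 stood at 6.41 and 6.15 FPKM in F145 and F146, at 11.5 and 9.79 in DA25 and DA53, and at 4.76, 7.42, 6.62 and 3.75 in the AdESC lines MR1-1, MR2-1, RM1-1 and RM2-1 respectively. Ifngr1 ran from 3.49 to 7.00 FPKM over the 8 libraries and Ifngr2 from 2.69 to 8.63. None of the 3 receptor genes passed the test in any bulk comparison.

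At the other end stood the Ifitm genes, membrane proteins that block viral entry and the most abundant members. Ifitm2 was at 292 to 445 FPKM in the AdESC lines, 295 and 358 in the mouse lines and 229 and 235 in the rat lines. The 3 genes lie close together on mouse chromosome 7 and share runs of coding bases. Reads counted for 1 may therefore come from another, and single-gene values are uncertain. Coding sequences of Ifitm2 and Ifitm3 shared 80.9% of aligned bases, and those of Ifitm1 shared 82.1% with either. The longest run common to a pair was 69 bases (Ifitm2 and Ifitm3), 64 bases (Ifitm1 and Ifitm3) or 40 bases (Ifitm1 and Ifitm2). A stretch of 72 coding bases was picked around the longest of these runs, so its few differences do not stand for whole coding sequences. It overlaps all of those runs and holds the 40-base run whole. It comes from GENCODE transcripts of GRCm38 (the build also called mm10), 5′ to 3′ on the gene's own strand, with capitals where a base differs from Ifitm3. Ifitm3 has it at chr7:141010425-141010496 (minus strand), Ifitm2 at chr7:140955698-140955769 (minus strand) with 4 differences, and Ifitm1 at chr7:140968339-140968410 (plus strand) with 6.
Ifitm3: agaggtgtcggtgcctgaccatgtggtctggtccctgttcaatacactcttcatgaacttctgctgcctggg
Ifitm2: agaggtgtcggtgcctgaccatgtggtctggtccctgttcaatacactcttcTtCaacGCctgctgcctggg
Ifitm1: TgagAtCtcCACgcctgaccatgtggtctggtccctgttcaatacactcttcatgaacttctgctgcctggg

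Of the 46 genes, 31 averaged 1 FPKM or more in bulk and entered the bulk fit (limma on log2(FPKM + 1), threshold 0.05 after Benjamini-Hochberg adjustment over all 8794 genes tested). The other 15 had bulk means of at most 0.978 FPKM. The plot by library shows 29 of the 31.

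**Figure D1:**
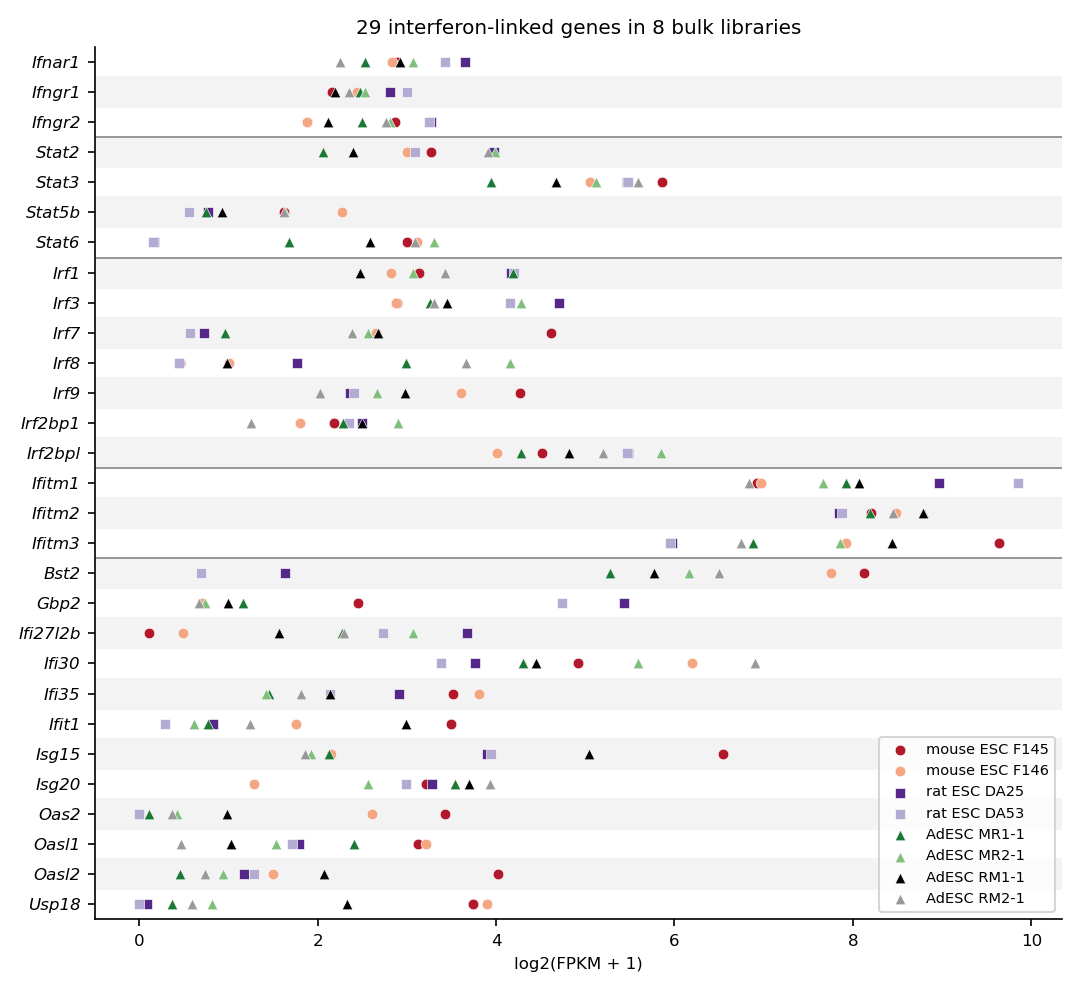
Expression of 29 interferon-linked genes on the log2(FPKM + 1) scale (horizontal axis) in 8 bulk libraries, 1 point per library and no averaging, with genes grouped into receptors, Stat, Irf, Ifitm and effector genes by horizontal lines. Bst2, Oas2 and Usp18 stand apart in both mouse lines (Bst2 at 279 and 215 FPKM), while Isg15 is highest in F145 (92.1 FPKM) and RM1-1 (31.8 FPKM).

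AdESCs had lower values of several antiviral genes than mouse ESCs. How mouse and rat values of a homologue were joined in AdESCs is not given, and differences from either parent depend on it. Bst2, Ifi35, Irf9, Oas2 and Usp18 were lower and Ifi27l2b was higher, that is 5 of 31 lower and 1 of 31 higher, where 1.18% of all genes tested were lower and 2.71% higher. The median log2 difference was -0.39 over these genes and -0.01 over all genes. Bst2 (chr8:71534255-71537456, minus strand), which tethers budding virus to the cell, stood at 279 and 215 FPKM in F145 and F146. Among the AdESC lines MR1-1 had 37.7 FPKM, MR2-1 70.6, RM1-1 53.5 and RM2-1 89.4. No AdESC line reached a mouse line, and the log2 difference was -2.02 ± 0.38 (SE; adjusted p = 0.0209 by limma). Usp18 (chr6:121245906-121270917, plus strand), the protease that strips Isg15 and dampens receptor signalling, was at 12.3 and 13.9 FPKM in the mouse lines. In the AdESC lines it was at 0.295, 0.762, 4.04 and 0.508 FPKM in the same order, a log2 difference of -2.79 ± 0.50 (adjusted p = 0.0177 by limma). RM1-1 was the highest of the AdESC lines and still lay below both mouse lines.

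Oas2 (chr5:120730333-120749853, minus strand), which makes the oligoadenylates that activate RNase L, was at 9.74 and 5.12 FPKM in F145 and F146. In the AdESC lines it was at 0.0781, 0.346, 0.973 and 0.290 FPKM in the same order (-2.55 ± 0.37, adjusted p = 0.00627 by limma). Both Oas2 and Usp18 passed the filter on low values only through the mouse lines, where they are high. Ifi35, a partner of the interferon-induced factor Nmi, was at 10.5 and 13.0 FPKM in the mouse lines and at 1.74, 1.69, 3.40 and 2.52 in the AdESC lines (-1.96 ± 0.34, adjusted p = 0.016 by limma). It was also the only one of the 31 whose 4 AdESC values lay below all 4 parental libraries (rat 6.52 and 3.42 FPKM), where 1.24% of all genes did so. None lay above all 4 (1.07% of all genes). Irf9, the DNA-binding part of the interferon-activated complex, fell from 18.3 and 11.2 FPKM to 3.09, 5.34, 6.88 and 3.09 (-1.51 ± 0.36, adjusted p = 0.0489 by limma). Ifi27l2b, a small mitochondrial protein of the Ifi27 family, went the other way, from 0.0827 and 0.411 FPKM to 3.83, 7.43, 1.97 and 3.91 (2.00 ± 0.44, adjusted p = 0.0407 by limma). Oasl1, a repressor of Irf7 translation, was not called, at 7.73 and 8.28 FPKM in the mouse lines against 0.381 to 4.32 in the AdESC lines (adjusted p = 0.0661 by limma). Stat3, which carries the LIF signal in mouse ESCs, gave 57.1 and 32.3 FPKM against 14.4 to 47.2 (adjusted p = 0.45 by limma).

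Irf9 was called in only 1 of 13 alternative settings and Ifi27l2b in 3 of 13. The calls were also not kept without F145. That fit held 1 mouse library, and fewer of all genes were called in it too. A part played by F145 and the loss of a replicate cannot be told apart. Usp18 then had a log2 difference of -2.87 (-2.79 with F145) and Ifi35 -2.1 (-1.96). Bst2 had -1.83 (-2.02), Irf9 -1.18 (-1.51) and Ifi27l2b 1.81 (2.00). Oas2 dropped out of the fit because its mean fell below 1 FPKM. Without F146, only Oas2 (-2.95, adjusted p = 0.0089 by limma) and Oasl2, an Oas-like protein (-2.97, adjusted p = 0.0287), passed. In F146 alone Bst2, Usp18, Oas2, Ifi35 and Irf9 all lay above every AdESC line. These genes were called in a fit that held F146, so this is a description and not support. Without MR2-1 the count was 3, and without F145 and RM1-1 together it was 1 (Usp18, -3.30, adjusted p = 0.0153 by limma).

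The 2 mouse lines differed in a second set of members. Of the 31, 7 were at least 1 log2 unit higher in F145 than in F146, where 7.51% of all genes were, and 2 were at least 1 lower, where 10.8% were. The 7 were Gbp2, Ifit1, Ifitm3, Irf7, Isg15, Isg20 and Oasl2, and the lysosomal reductase Ifi30 was among the 2. Isg20 and Oasl2 are named after their values were seen, as are the ligands, Ifngr2, Ifi44 and Ifih1. Isg15 (chr4:156199424-156200818, minus strand), the ubiquitin-like tag, was at 92.1 FPKM in F145 and 3.45 in F146, and the F146 value lay close to MR1-1 (3.38), MR2-1 (2.79) and RM2-1 (2.61). Irf7, which drives type I interferon production, was at 23.6 against 5.28 FPKM, beside 0.949 to 5.41 in the AdESC lines. Ifitm3 was at 795 against 243 FPKM, Ifit1, which binds viral RNA lacking cap methylation, at 10.3 against 2.38, and Oasl2 at 15.3 against 1.82. In these 5 genes F146 lay within or near the AdESC range and F145 above it. Isg20, an exonuclease, differed from them, with F145 (8.31 FPKM) inside the AdESC range of 4.92 to 14.2 and F146 (1.45) below it. With 1 library per line these differences have no test.

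Markers of another cell type moved the same way. The 22 fibroblast and feeder markers averaged 6.51 in F145 (log2 scale, summed 4478 FPKM, none at 0) and 3.97 in F146 (summed 798 FPKM, none at 0), and 2.94 to 3.96 in the AdESC lines. The 12 leukocyte markers averaged 2.42 in F145, 1.09 in F146 and 0.792 to 1.28 in the AdESC lines. Fewer cells of a type and less RNA per cell cannot be told apart in bulk samples, and the part of these markers in the F145 values was not tested. Interferon-stimulated genes outside the symbol rule were also higher in F145 by at least 1 log2 unit in 7 of 24 (Rsad2, Rtp4, Lgals3bp, Shisa5, Cxcl10, Slfn2 and Tor3a), and lower in 1 (Phf11d). For the chemokine Cxcl10 the values were 8.69 FPKM in F145 and 1.36 in F146.

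Among the 4 AdESC lines, RM1-1 carried the most of several of the same genes. It was the highest line for 11 of the 31, where it was the highest for 26.9% of all genes. It exceeded the other 3 by at least 0.5 log2 units in 6 (Ifit1, Ifitm3, Isg15, Oas2, Oasl2 and Usp18), where it did so in 2.99% of all genes. Isg15 was at 31.8 FPKM in RM1-1 and 2.61 to 3.38 in the others, and Ifit1 at 6.94 against 0.529 to 1.37. Oasl2 was at 3.21 FPKM against 0.376 to 0.923, and Ifitm3 at 346 against 106 to 231. Outside the rule 7 of 24 interferon-stimulated genes exceeded the other lines by as much, with Cxcl10 at 8.20 FPKM against 0.438 to 1.61. Fibroblast markers averaged 3.96 in RM1-1, 3.94 in MR2-1, 3.82 in RM2-1 and 2.94 in MR1-1. In the 4 single RM1-1 AdESC cells Isg15 averaged 24.9 FPKM, with 1 of 4 cells at 1 FPKM or more, against 2.44 to 8.20 in the other AdESC samples. Ifit1, Oas2, Oasl2 and Usp18 were listed at 0 in all 4 of those cells, and Ifitm3 averaged 131 FPKM there against 159 to 197 in the other AdESC samples. The plot of line against line shows both sets.

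**Figure D2:**
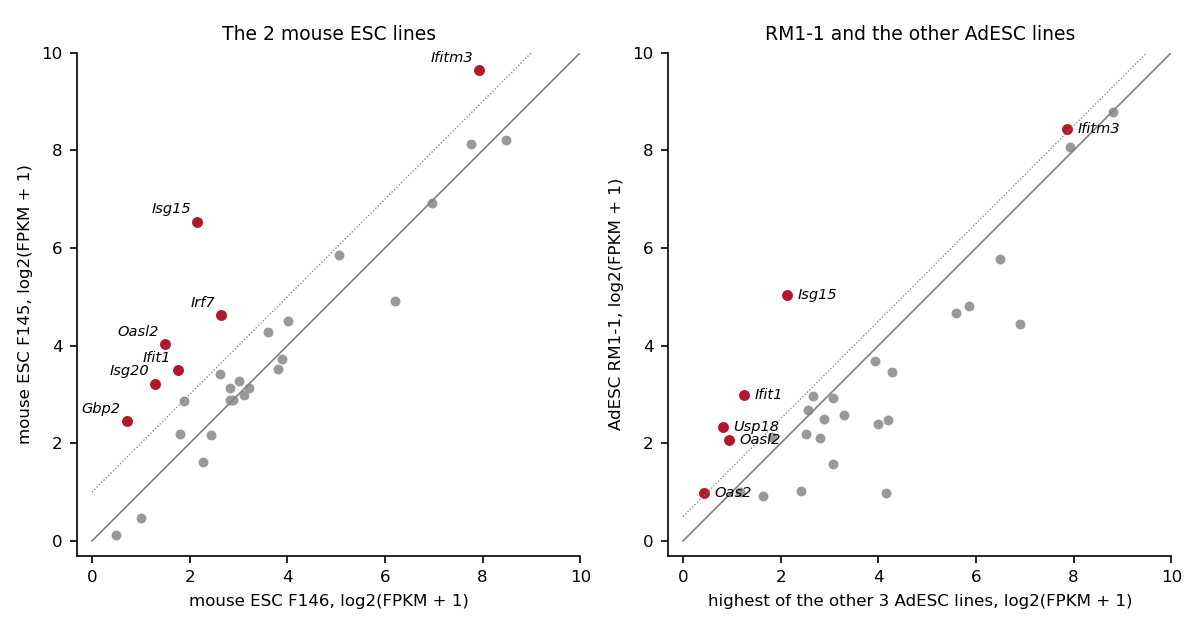
Expression of 29 of the 31 genes on the log2(FPKM + 1) scale, F145 (vertical) against F146 (horizontal) on the left and RM1-1 (vertical) against the highest of the other 3 AdESC lines (horizontal) on the right, 1 point per gene, with the line of equality and a dotted line at 1 (left) and 0.5 (right) above it. Red points are the 7 and 6 genes past the dotted lines, and Isg15 lies farthest above the line of equality in both panels.

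Against rat ESCs the calls went both ways, at shares near those of all genes. Bst2 and Stat6 were higher in AdESCs and Gbp2 and Ifitm1 lower, so 2 of 31 rose and 2 of 31 fell, against 5.79% and 3.91% of all genes. The medians were -0.19 over these genes and -0.11 over all genes. Gbp2 (chr3:142620602-142638008, plus strand), a GTPase that attacks vacuoles of intracellular pathogens, was at 42.2 and 25.8 FPKM in DA25 and DA53. MR1-1 had 1.25 FPKM, MR2-1 0.671, RM1-1 1.00 and RM2-1 0.589, beside 4.48 in F145 and 0.635 in F146, so the rat level was not found in any AdESC line. The AdESC to rat difference was -4.19 ± 0.46 (adjusted p = 0.000322 by limma). Ifitm1 was at 500 and 923 FPKM in the rat lines and 242, 202, 267 and 113 in the AdESC lines, beside 121 and 124 in the mouse lines (AdESC to rat -1.79 ± 0.37, adjusted p = 0.0136 by limma). Without DA53 that call was lost (-1.35, adjusted p = 0.201 by limma). Bst2 stood at 2.11 and 0.622 FPKM in rat (4.76 ± 0.38, adjusted p = 3.25e-05 by limma).

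Stat6, the transducer of interleukin-4, stood at 0.122 and 0.112 FPKM in rat and 2.21 to 8.90 in AdESCs (2.51 ± 0.43, adjusted p = 0.00578 by limma). It was not called without DA25 (adjusted p = 0.064) or DA53 (0.0715). Values near 0 in rat need care, since the table does not separate a missing rat gene model from missing transcripts. Of the 46 genes, 6 were listed at 0 in both rat lines, Oas2 and Ifit2 among them. Under upper-quartile scaling the all-gene median against rat went from -0.11 to 0.20, the genes called went from 509 higher and 344 lower to 752 and 165, and Ifitm2 then passed as higher in AdESCs (1.04, adjusted p = 0.0187 by limma).

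Between the parents themselves 4 of 31 were higher in rat (Gbp2, Ifi27l2b, Ifitm1 and Irf3) and 7 lower (Bst2, Ifitm3, Irf7, Irf9, Oas2, Stat6 and Usp18). Over all genes 14.1% were higher and 12.6% lower (1239 and 1104 of 8794). Under upper-quartile scaling 886 were higher and 1499 lower of 8810, the all-gene median went from 0.08 to -0.19, and 4 and 11 of the interferon-linked genes were called. Irf3, the sensor-activated inducer of interferon beta, was at 25.1 and 16.9 FPKM in rat and 6.44 and 6.36 in mouse (1.54 ± 0.39, adjusted p = 0.0167 by limma). Ifitm3 was at 61.7 and 60.8 FPKM in rat (-2.82 ± 0.62, adjusted p = 0.00845 by limma), and Irf7 at 0.652 and 0.481 (-2.99 ± 0.69, adjusted p = 0.0107). Without F145 none of Ifitm3 (adjusted p = 0.063 by limma), Irf7 (0.0718), Irf3 (0.0583) and Irf9 (0.112) was called. Each of these 4 also lost its call without at least 1 rat line, Irf3 without DA25 (adjusted p = 0.136 by limma), and Irf3 also without F146 (0.0546). AdESC values lay between the parental means in all 4 lines for 8 of 31 genes, where 25.2% of all genes did: Bst2, Ifi27l2b, Ifitm3, Irf3, Irf7, Oas2, Stat5b and Usp18. The 3 bulk comparisons share their libraries, so these counts are not independent of each other.

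In single cells the contrast was between 4 AdESC samples and 7 differentiated samples, each entering as the mean of its cells. Gbp2, Ifngr1 and Irf2 rose on differentiation and Ifitm1 fell, 3 and 1 of 28 genes tested, against 7.37% and 8.57% of 8421 genes. The medians were 0.52 over these genes and 0.02 over all. Ifitm1 was at 207, 220, 260 and 205 FPKM in the MR1-1, MR2-1, RM1-1 and RM2-1 AdESC samples and at 1 FPKM or more in 24 of 24 cells. It averaged 5.18 and 45.7 FPKM in MR2-1 and RM1-1 EBs, 47.9 in fibroblasts, 0.031 in neurons, 2.00 in lung, and 0.0612 and 27.6 in RM1-1 and RM2-1 testis. Every differentiated sample lay below every AdESC sample (-4.89 ± 0.99, adjusted p = 0.00372 by limma). The call held without RM1-1 testis and RM2-1 lung (-4.07, adjusted p = 0.0096 by limma).

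Its neighbours changed less. Ifitm3 averaged 164 ± 27.3 FPKM (SD, n = 4) in AdESC samples and 110 ± 43.7 (SD, n = 7) in differentiated ones (-0.64 ± 0.29, adjusted p = 0.14 by limma). Ifitm2 averaged 401 ± 82 and 196 ± 155 FPKM (-1.50 ± 0.58, adjusted p = 0.0902 by limma). The log2 ratio of Ifitm1 to Ifitm3 (both + 1) was 0.449 ± 0.388 in AdESC samples (n = 4) and -3.81 ± 2.56 in differentiated ones (n = 7), a quantity chosen after the values were seen. Without RM1-1 testis and RM2-1 lung the differentiated ratio was -3.05 ± 2.61 (n = 5). A permutation test was run on it, but for a quantity picked for its difference the result cannot count as support and is not given. In neurons Ifitm1 was below 1 FPKM in 8 of 8 cells while Ifitm3 reached 1 FPKM in 7 of 8. The plot of cells by sample shows the 3 genes side by side.

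**Figure D3:**
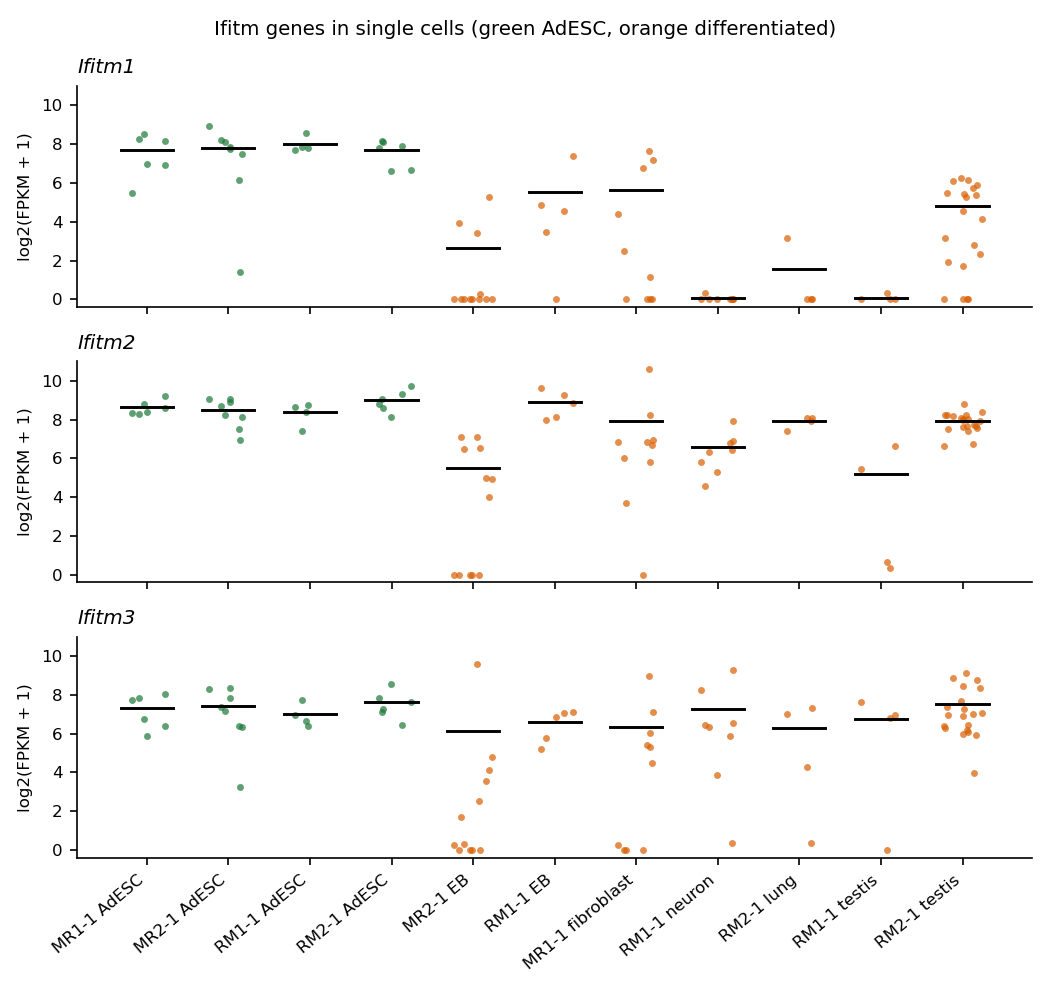
Expression of Ifitm1, Ifitm2 and Ifitm3 in 87 single cells on the log2(FPKM + 1) scale, by sample, with 1 point per cell (green AdESC, orange differentiated, spread sideways for legibility) and a bar at the log2 of the sample mean + 1. Ifitm1 sample means run from 205 to 260 FPKM in AdESCs and from 0.031 to 47.9 in differentiated samples, while Ifitm3 means overlap.

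Irf2 (chr8:46739732-46847458, plus strand), a factor that competes with Irf1 at the same promoter elements, was listed at 0 in all 24 AdESC cells. It was at 1 FPKM or more in 35 of 63 differentiated cells, with sample means of 4.38 and 1.82 FPKM in EBs, 2.40 in fibroblasts, 2.72 in neurons, 2.60 in lung, and 7.48 and 2.02 in testis. The adjusted p was 0.00728 by limma, and 0.0173 without RM1-1 testis and RM2-1 lung. No fold is given against a group at 0. Irf2 and Gbp2 passed the filter on low values only through the differentiated samples, as Oas2 and Usp18 did in bulk through the mouse lines. In the bulk AdESC lines, a table normalised apart from the cells, Irf2 was at 0.126 to 0.411 FPKM. Irf1 was not called, with 13 of 24 and 27 of 63 cells at 1 FPKM or more (11.5 ± 3.53 and 9.37 ± 8.36 FPKM, n = 4 and 7, adjusted p = 0.456 by limma).

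Gbp2 was listed at 0 in 3 AdESC samples and at 0.890 FPKM in the RM2-1 one, from 1 cell. The differentiated samples ran from 0.448 FPKM in fibroblasts to 23.3 in RM1-1 testis (2.27 ± 0.64, adjusted p = 0.026 by limma). Few cells carried these means. Gbp2 reached 1 FPKM in 1 of 4 RM1-1 testis cells (93.1 FPKM), 1 of 4 lung cells and 1 of 8 neurons. It did so in 2 of 10 fibroblasts, 4 of 12 MR2-1 and 2 of 5 RM1-1 EB cells, and 8 of 20 RM2-1 testis cells. The call was lost without the AdESC sample of MR1-1, MR2-1 or RM1-1 (adjusted p = 0.0783, 0.077 and 0.0796) or without RM2-1 testis (0.0516). Without RM1-1 testis and RM2-1 lung it held (1.92, adjusted p = 0.0436). Ifngr1, the ligand-binding chain for interferon gamma, was at 5.77, 5.37, 4.83 and 1.39 FPKM in AdESC samples and 4.81 to 25.7 in differentiated ones (1.56 ± 0.50, adjusted p = 0.0444 by limma). That call ended without any 1 of the 4 AdESC samples, either testis sample, RM1-1 EB or neurons (adjusted p from 0.0527 to 0.159). It also ended without RM1-1 testis and RM2-1 lung (0.0604) and with the cell line as a block (1.44, adjusted p = 0.0766 by limma). Ifngr2, the partner chain, was at 0.821 ± 0.585 FPKM (n = 4) and 10.6 ± 9.29 (n = 7), not called (adjusted p = 0.0601), and was called with the line as a block (adjusted p = 0.0132). So was Usp18, at 0.890 ± 1.77 and 11.8 ± 15.0 FPKM (adjusted p = 0.0754, or 0.0364 with the block, by limma). Both Ifngr2 and Usp18 averaged under 1 FPKM in AdESC samples. They passed the filter on low values only through the differentiated samples, where they are high. Shares of cells come from the same cells as these means and pool samples of unequal size, so they are a description and not support. Ifngr1 reached 1 FPKM in 9 of 24 AdESC cells and 47 of 63 differentiated cells, and Ifngr2 in 6 and 47. RM2-1 testis gave 16 of those differentiated Ifngr1 cells and 19 of the Ifngr2 cells. Without RM1-1 testis and RM2-1 lung the differentiated counts were 39 and 43 of 55 cells, and those of Irf2 and Ifitm1 were both 29.

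**Figure D4:**
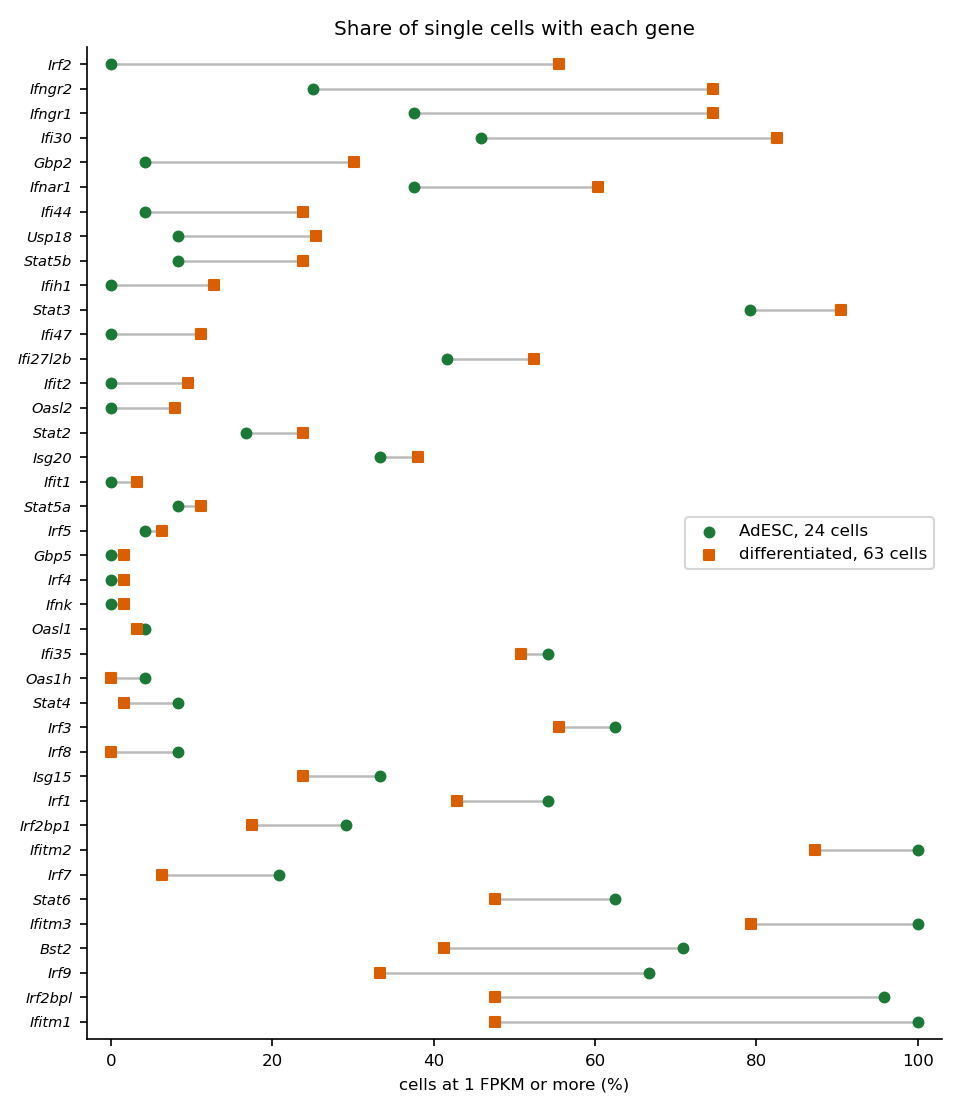
Share of single cells at 1 FPKM or more (horizontal axis, %) for 40 genes with at least 1 such cell, in 24 AdESC cells (green circles) and 63 differentiated cells (orange squares), ordered by the difference. Irf2 is at 0% and 55.6%, and Ifitm1 at 100% and 47.6%.

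Of the 46 genes, 13 stayed below 1 FPKM in every AdESC cell, and 4 of these (Ifnb1, Ifng, Oas1f and Oas2) were listed at 0 in all 87 cells. In contrast Irf2bpl, a relative of the Irf2-binding proteins, reached 1 FPKM in 23 of 24 AdESC cells and 30 of 63 differentiated cells (5.10 ± 1.55 and 2.1 ± 1.55 FPKM, adjusted p = 0.142 by limma). Bst2 reached it in 17 of 24 and 26 of 63 cells (12.4 ± 5.47 and 4.36 ± 3.21 FPKM, adjusted p = 0.109), and Irf9 in 16 and 21.

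The EB samples (n = 2) gave no call against AdESCs in 29 genes by limma, where 6.64% of 8218 genes were called in either direction. Of the 29, 10 had an unadjusted p under 0.05. Leaving out RM1-1 testis or RM2-1 testis left 1 testis sample in the shared fit. Gbp2, Ifi27l2b, Ifitm1, Ifitm3 and Irf2 were then called, and more of all genes were called too. Usp18 was at 7.01 and 14.2 FPKM in EBs and Ifi27l2b at 34.6 and 29.3 (adjusted p = 0.169 and 0.0602 by limma). The 7.01 of Usp18 came from MR2-1 EBs, where 1 of 12 cells reached 1 FPKM. The testis samples (n = 2) gave 3 genes higher (Gbp2, Ifit2 and Irf2) and 1 lower (Ifitm1) of 29, against 6.19% and 6.12%. Ifit2, which restrains viral translation, was at 7.09 FPKM in RM1-1 testis and 1.66 in RM2-1 testis and listed at 0 in all AdESC samples (adjusted p = 0.0468 by limma). It passed the filter on low values only through the testis samples where it is high, and without RM1-1 testis it no longer passed and was not tested. With the line as a block neither Ifit2 (adjusted p = 0.182) nor Irf2 (0.138) was called, and without RM1-1 testis Irf2 (0.127) and Ifitm1 (-2.96, 0.0787) were not called, while Gbp2 was. Ifit2 and Irf2 were also not called without any 1 of the 4 AdESC samples (adjusted p from 0.0874 to 0.102 by limma). Without RM2-1 testis the group held RM1-1 testis alone, and more of these genes and fewer of all genes were called. Testis and EB samples did not differ in any of the 29 genes by limma, where 0.122% of all genes were called, with 3 at an unadjusted p under 0.05. With RM1-1 testis alone in its group the log2 differences of Ifih1 and Ifit2 from EBs were 3.7 and 2.98. Both genes passed the filter on low values only through RM1-1 testis. There Ifih1 reached 1 FPKM in 2 of 4 cells. Fibroblast markers were higher in the differentiated samples, averaging 2.17 to 5.69 against 1.04 to 1.41 in AdESC samples. Their part in these differences was not tested.

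Inducible members were scattered over single cells. A list of 16 was drawn up with the values known (Gbp2, Gbp5, Ifi35, Ifi44, Ifi47, Ifih1, Ifit1, Ifit2, Irf7, Isg15, Oas1f, Oas1h, Oas2, Oasl1, Oasl2 and Usp18), so its counts are a description. AdESC cells had a median of 1 of the 16 at 1 FPKM or more (0 to 4), and 6 of 24 cells had none. Differentiated cells had a median of 2 (0 to 8), 7 of 63 cells had none and 3 had 5 or more. Without RM1-1 testis and RM2-1 lung the median was 2 over 55 cells, 7 of which had none and 2 had 5 or more. The highest was an MR2-1 EB cell with 8 genes: Isg15 at 420 FPKM, Usp18 at 83.8, Gbp2 at 39.1, Ifit1 at 37.2, Oasl1 at 28.1, Ifih1 (an RNA sensor) at 16.5, Ifi35 at 11.9 and Ifi44 at 1.11. It had 4814 genes at 1 FPKM or more, within the range of the other EB cells. An RM1-1 neuron had 5, with Gbp2 at 28.4 FPKM and Usp18 at 16.9. All 4 RM1-1 testis cells had 3 to 5. The plot of the 16 genes by cell shows how rare such cells were.

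**Figure D5:**
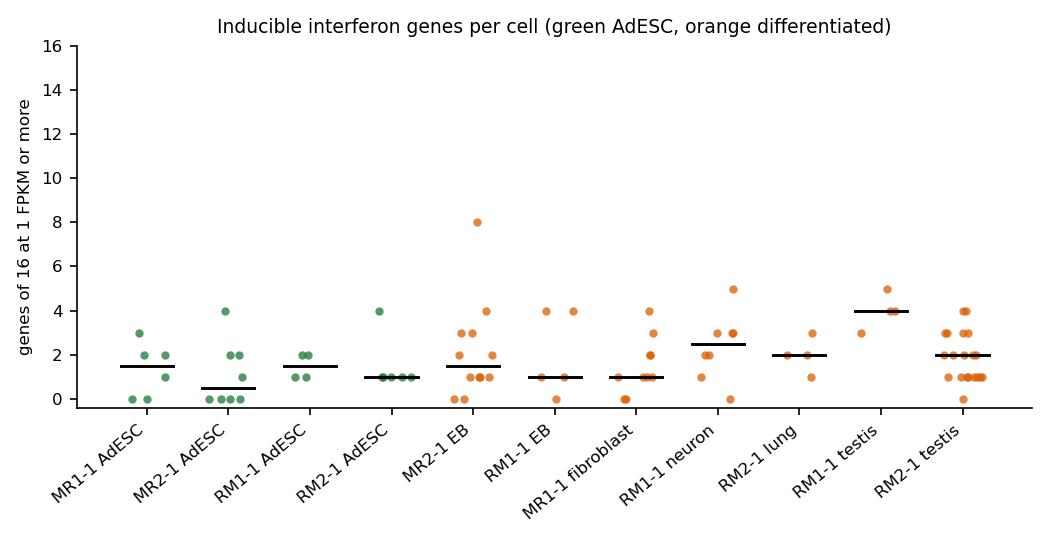
Number of 16 inducible interferon genes at 1 FPKM or more (vertical axis) in each of 87 single cells, by sample, with 1 point per cell (green AdESC, orange differentiated) and a bar at the sample median. AdESC medians are 0.5 to 1.5 and differentiated medians 1 to 4, and the MR2-1 EB cell at 8 is the highest.

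The other genes of the pathway were counted from lists outside the symbol rule. Of 24 interferon-stimulated genes tested in bulk, 2 were lower in AdESCs than in mouse ESCs and 1 higher, beside 1.18% and 2.71% of all genes (list median -0.74, all genes -0.01). Eif2ak2, the kinase that stops translation on double-stranded RNA, fell from 20.1 ± 2.01 to 7.66 ± 1.66 FPKM (n = 2 and 4, adjusted p = 0.0476 by limma). The lectin Lgals9 fell from 18.7 ± 0.798 to 4.02 ± 2.65 (adjusted p = 0.0311), and Tor3a rose from 8.16 ± 5.76 to 44.5 ± 6.35 (adjusted p = 0.0099). Of 12 sensing genes 1 was lower, the Z-nucleic acid sensor Zbp1 (adjusted p = 0.0489 by limma). It was at 20.1 and 4.26 FPKM in F145 and F146 and 0.618 to 2.88 in the AdESC lines. Zbp1 passed the filter on low values only through the mouse lines, where it is high. None of 20 genes of Janus kinase signalling and none of 11 of antigen presentation was called against mouse by limma, with 5 and 2 at an unadjusted p under 0.05. Against rat, 4 of 24 interferon-stimulated genes were higher (Apobec3, Lgals3bp, Lgals9 and Phf11d), beside 5.79% of all genes. Of 20 signalling genes 3 (Il10rb, Jak2 and Lifr) and of 11 presentation genes 2 (Erap1 and Psme1) were lower, beside 3.91% of all genes.

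On differentiation, where 7.37% of all genes rose and 8.57% fell, 4 of 21 interferon-stimulated genes outside the rule fell and none rose by limma (7 at an unadjusted p under 0.05, median -0.13, all genes 0.02). The cytidine deaminase Apobec3 fell from 17.5 ± 3.94 to 1.84 ± 3.07 FPKM (n = 4 and 7, adjusted p = 0.00322 by limma), and Tor3a, Phf11d and Daxx fell too. Of 9 sensing genes 2 fell and 1 rose. Mavs, the mitochondrial adaptor of RNA sensing, fell from 16.6 ± 6.83 to 3.63 ± 3.36 FPKM (adjusted p = 0.0255) and Trim25 fell, while Rela rose. Of 17 signalling genes Jak1, the kinase on both interferon receptors, rose from 4.51 ± 2.67 to 15.8 ± 6.51 FPKM (adjusted p = 0.022). Pias2, Pias4 and Socs2, which restrain Stat signalling, fell, Pias2 from 60.2 ± 12.1 to 15.1 ± 9.88 (adjusted p = 0.00691). B2m, the light chain of class I molecules, rose from 17.6 ± 7.73 to 138 ± 121 FPKM (adjusted p = 0.00372), alone among 9 presentation genes. Without RM1-1 testis and RM2-1 lung the calls of Trim25 (adjusted p = 0.0818 by limma), Rela (0.061) and Pias4 (0.095) were lost, and Shisa5 rose (2.17, 0.0293). The other 9 genes kept their calls.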

How the data were processed

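RNA of 8 bulk libraries and 87 single cells was analysed from 2 deposited tables of FPKM, made by the authors with TopHat2 2.0.10 and Cufflinks 2.1.1 after FastQC 0.10.1 on mm10 and rn5, per the submitters' processing notes. How mouse and rat values of a homologue were joined is not given in the sources used here. Groups came from the labels. All 46 genes had a GENCODE M21 (GRCm38) gene of the same symbol. No 2 libraries or cells were identical (highest log2 correlation 0.9867 in bulk and 0.8811 between cells).

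limma 3.58.1 (R 4.3.3, trend in the prior variance) was fitted to log2(FPKM + 1) of genes averaging 1 FPKM or more, in 1 fit of 3 bulk groups, 1 of 11 single-cell samples and 1 of 8. P-values were Benjamini-Hochberg adjusted over all genes. They measure the spread between samples. In bulk these are separate lines, while 5 of the 7 differentiated samples came from 2 lines and share their source. The fit was tested on simulated data.

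The genes and lists were chosen with earlier results of these data known. Named genes were those called anywhere, the 12 highest by mean in each table and the highest of each family, with exceptions stated. AdESC and differentiated samples of the same line are paired by that line, whereas cell numbers in the labels pair nothing. Deviations correlated best with their own line in 3 of 7 differentiated samples (correlations from -0.015 to 0.0356). Some of the 46 genes are counted but not reported here by name.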

Additional observations from a re-analysis of the deposited data

Results flagged for a closer look

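Within groups of 4 to 7 samples, the highest or lowest value was set against the gap to its nearest neighbour, and 9 of 64 gene and group pairs had a sample that stood apart. The rule's nominal rate of 1 in 20 assumes normal and independent values. Low FPKM with zeros and related genes do not meet that, so the count is a description. In the bulk AdESC lines RM1-1 stood apart in Ifit1 (6.94 FPKM, others 0.529 to 1.37), Isg15 (31.8, others 2.61 to 3.38) and Usp18 (4.04, others 0.295 to 0.762). MR2-1 stood apart in Irf3 (18.4 FPKM, others 8.59 to 9.94). In single-cell AdESC samples RM2-1 did so in Gbp2 (0.89 FPKM, others listed at 0) and MR2-1 in Usp18 (3.54 FPKM, others at most 0.017). In differentiated samples RM1-1 testis did so in Gbp2 (23.3 FPKM, others 0.448 to 9.3) and Usp18 (44 FPKM, others 0.34 to 14.2), and MR2-1 EB in Irf7 (7.27 FPKM, others at most 1.59). Gbp2 reached 10 FPKM in 1 of 4 RM1-1 testis cells (93.1 FPKM), and Irf7 in 1 of 12 MR2-1 EB cells (78.3 FPKM).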

How the results depend on the processing

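The 29 calls of a gene in a comparison were tried under 373 alternative settings in all. Of these, 298 kept the call, 75 lost it and none reversed it. In 13 cases the call held in every setting where the gene was tested (Oas2 against mouse could not be tested without F145). Counts of genes called ranged from 0 to 6 against mouse (6 with all libraries) with 1 library left out (0 without F145, 2 without F146 and 3 without MR2-1), and the count was 1 without both F145 and RM1-1, a setting chosen after the data were seen. They ranged from 2 to 5 against rat (4 with all) and from 8 to 16 between the parents (11 with all), where a fit of the 2 parental groups alone gave 17. Leaving out 1 sample gave 2 to 5 in differentiated samples (4 with all), 0 to 5 in EBs (0), 2 to 7 in testis (4) and 0 to 2 between testis and EBs (0). With no filter the differentiated count was 2. In EBs a pseudocount of 0.1 gave 1, and averaging log2 values over cells gave 1. The cell line as a replicate block gave 5 in differentiated samples, 0 in EBs, 2 in testis and 0 between testis and EBs. The cause of these shifts was not tested. A lone sample left in a group was assumed to vary like the other groups. Read depth is unknown, so counting error could not be set beside low values. A planned search of promoters for motifs was not run.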
